A study of Mus musculus with 3 samples.

Results

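The genes described here are 9 regulators of blood clotting and of the breakdown of clots: F3, Tfpi, Thbd, Procr, Vwf, Plat, Plau, Plaur and Serpine2. They were chosen by their gene symbols, and 8 of the 9 had a probe set under the platform annotation, out of 19938 genes named on the array; Serpine2, a secreted inhibitor of thrombin and of plasminogen activators, is not analysed here. The study compared whole kidney RNA of female CBL/6 mice, 8 to 10 weeks old, on Affymetrix Mouse Gene 1.0 ST arrays. The NTS/PGE2 array came from mice given 1 injection of sheep nephrotoxic serum (NTS), 13.5 ug per g of body weight, followed from day 2 by daily prostaglandin E2 (PGE2), 5 ug per g. The NTS array came from mice given the serum alone, and the control array from non-treated mice. Treated mice were killed on day 7. Nephrotoxic serum holds antibodies against the glomerulus and starts an immune nephritis in it.

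Clotting is started by tissue factor, the product of F3, and slowed at that step by tissue factor pathway inhibitor (Tfpi). Thrombomodulin (Thbd) and the endothelial protein C receptor (Procr) sit on endothelial cells and turn thrombin towards activating protein C, an anticoagulant. Von Willebrand factor (Vwf) is stored in endothelial cells and platelets and tethers platelets to the vessel wall. Fibrin is dissolved by plasmin, which tissue plasminogen activator (Plat) and urokinase (Plau) cut from plasminogen; the urokinase receptor (Plaur) holds urokinase at the cell surface. Fibrin in glomeruli is a known feature of this nephritis, and kidney tubules are known to make urokinase.

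Plat was the one gene of the 8 that differed by 2-fold or more between any pair of arrays. It stood highest in NTS kidney, and in NTS/PGE2 kidney it was slightly below the control array. F3 was lowest in NTS/PGE2 kidney, Thbd was lowest in NTS kidney, Tfpi was highest in control kidney, and Plau was highest in NTS/PGE2 kidney, all by less than 2-fold. Vwf and Procr had the same value on all 3 arrays.

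All values are on the log2 scale, after the RMA normalisation made by the authors. There was 1 array per group, so differences have no check against replicates and were not tested, and precision is limited by having only 3 arrays. The labels do not say whether an array held RNA of 1 mouse or of several. The median of all probe sets was 7.14 in NTS/PGE2 kidney, 7.11 in NTS kidney and 7.11 in control kidney. Of the 8 genes, 7 lay above these medians on all 3 arrays and Procr lay below them on all 3. Each of the 8 had 1 probe set. Values of different probe sets share no scale, so levels are compared between arrays and not between genes. As a technical yardstick, the SD of a difference between arrays, taken from genes read by 2 bright probe sets, was 0.22 for NTS minus control (480 genes), 0.22 for NTS/PGE2 minus NTS (476 genes) and 0.13 for NTS/PGE2 minus control (468 genes). It leaves out the spread between animals, and any effect of RNA handling, labelling or array that shifts both probe sets alike. Kidney markers were bright on every array: the tubular protein gene Umod read 13.74 in NTS/PGE2 kidney, 13.64 in NTS kidney and 13.70 in control kidney, and the podocyte gene Podxl read 11.34, 11.37 and 11.34 in that order. Among the kidney lists, the median of NTS minus control was -1.42 over 14 proximal tubule genes (10 at least 2-fold lower), -1.34 over 13 distal tubule and collecting duct genes (8 at least 2-fold lower) and 0.01 over 12 podocyte genes. It was -0.15 over 10 liver genes and 0 over 10 neutrophil genes. All 10 neutrophil genes lay below the array medians and 6 had exactly equal values, so their median does not describe neutrophils.

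The DNA just before the start of F3, Plaur and Procr is shown because it holds the same short motif. F3 and Plaur both had their highest value in NTS kidney, by less than 2-fold, and Procr had equal values on all 3 arrays. For F3 the NTS array was only 0.16 above control, within the technical yardstick of 0.22, and its NTS/PGE2 value was the low one. A link between the motif and these values was not tested. RefSeq sequences of the GRCm38.p6 build were found for 5 of the 9 genes (F3, Tfpi, Procr, Plaur and Serpine2), and 250 bases before the start were searched on both strands. Capitals mark TGANTCA, the motif of AP-1 factors such as Fos and Jun. The windows are chr3:121723287-121723536 for F3, chr7:24462233-24462482 for Plaur and chr2:155750967-155751216 for Procr, each on the plus strand and written 5′ to 3′.
F3: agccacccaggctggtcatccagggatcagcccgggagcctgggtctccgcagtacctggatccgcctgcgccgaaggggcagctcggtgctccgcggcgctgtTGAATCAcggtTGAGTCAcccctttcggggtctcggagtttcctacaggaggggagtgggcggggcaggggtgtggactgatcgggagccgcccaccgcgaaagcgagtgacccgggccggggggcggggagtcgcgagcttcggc
Plaur: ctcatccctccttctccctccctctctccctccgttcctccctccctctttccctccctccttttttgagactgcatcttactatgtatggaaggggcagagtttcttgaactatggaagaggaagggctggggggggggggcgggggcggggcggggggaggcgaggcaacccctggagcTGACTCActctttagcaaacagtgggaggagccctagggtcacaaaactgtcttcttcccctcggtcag
Procr: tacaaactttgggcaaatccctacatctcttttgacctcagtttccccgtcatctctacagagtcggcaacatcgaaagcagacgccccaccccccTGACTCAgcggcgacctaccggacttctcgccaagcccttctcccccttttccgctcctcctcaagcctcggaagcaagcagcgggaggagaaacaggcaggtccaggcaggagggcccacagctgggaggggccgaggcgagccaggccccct
F3 held 2 matches, the first beginning 146 bases and the second 135 bases before the start. Plaur held 1 match at 69 bases and Procr 1 at 154 bases. The motif stood in 6.75% of all 32851 windows of this length, and in neither Tfpi window nor that of Serpine2. The GC box GGGCGG, bound by Sp1 and related factors, stood in 32.7% of all windows. It stood 3 times in the F3 window, 3 times in the Plaur window and not in the Procr window. The Serpine2 window held 6 matches and each Tfpi window 1. The Plaur and Serpine2 windows also held GCGGGGGCG, a motif of EGR factors found in 2.57% of windows. In both it overlaps GC boxes. The cyclic AMP response element TGACGTCA, in 1.55% of windows, was in none of those of the 5 genes. These are matches of letters and not measured binding sites.

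Plat codes for tissue plasminogen activator, which acts on fibrin and is made by endothelial and some epithelial cells. Its log2 value was 9.63 in NTS/PGE2 kidney, 11.08 in NTS kidney and 9.90 in control kidney. The NTS array was thus the high one. NTS minus control was 1.18, a 2.27-fold difference, and 237 of the 19938 genes (1.19%) were higher by as much or more. NTS/PGE2 minus NTS was -1.46, a 2.74-fold lower value, which 166 genes (0.833%) matched or passed in that direction. NTS/PGE2 minus control was -0.27, or 1.21-fold lower. Both of the first 2 comparisons use the NTS array, so their opposite signs are not separate observations.

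By the rule of 2-fold size, 1 of the 8 genes was called for NTS against control, where 5.15% of all 19938 genes were called (1.78% as higher, 3.37% as lower). In the comparison of NTS/PGE2 with NTS, 1 of 8 was called, against 4.66% of all genes (2.56% as higher, 2.1% as lower). In that of NTS/PGE2 with control, 0 of 8 were called, against 0.456% of all genes (0.0351% as higher, 0.421% as lower). With 1 gene called, these counts describe Plat and not the group. The median difference of the 8 genes was 0.07 for NTS minus control, 0 for NTS/PGE2 minus NTS and -0.02 for NTS/PGE2 minus control, where the median of all genes was 0 in each.

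**Figure D1:**
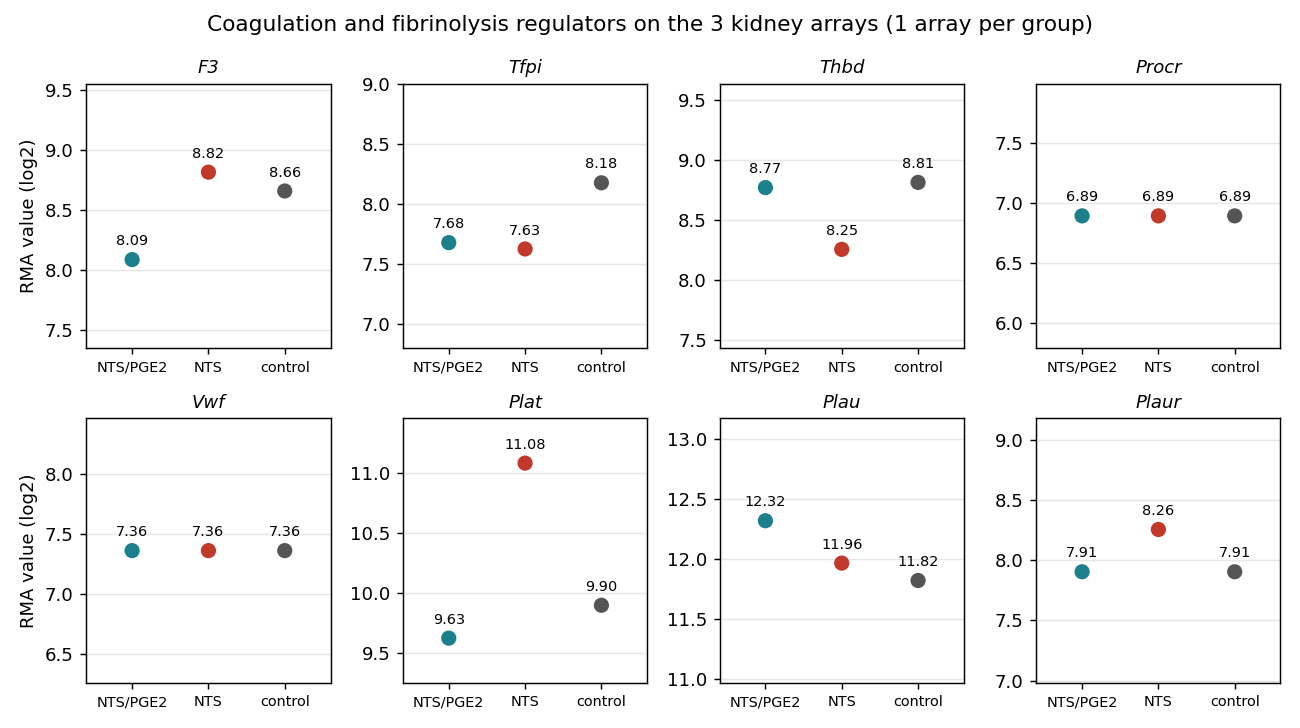
RMA values (log2, vertical axis) of the 8 measured genes on the NTS/PGE2, NTS and control arrays, 1 point per array, with no error bars because each group has 1 array. Every panel spans the same number of log2 units. Plat stands out in NTS kidney at 11.08, and the Procr and Vwf points are level across the arrays.

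Urokinase, the other activator, had a different order. Plau read 12.32 in NTS/PGE2 kidney, 11.96 in NTS kidney and 11.82 in control kidney, so the array with PGE2 was the highest. NTS minus control was 0.14, within the technical yardstick. NTS/PGE2 minus control was 0.50, a 1.41-fold difference. That is under 2-fold, but few genes differed between these arrays, and 128 of 19938 (0.642%) were higher by as much or more. NTS/PGE2 minus NTS was 0.35, or 1.28-fold, a size that many genes reached: 2270 (11.4%) were higher by as much or more. On the NTS array, then, Plat stood 2.27-fold and Plau 1.11-fold above control.

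Plaur, the anchor of urokinase on the cell, read 7.91 in NTS/PGE2 kidney, 8.26 in NTS kidney and 7.91 in control kidney. The NTS array was the higher one by 0.35, or 1.28-fold, and the values of the other arrays were exactly equal. Many genes differed by as much: 10.1% of genes were at least this much higher for NTS minus control. Plaur is known in macrophages and in injured epithelium. Of 15 macrophage markers, 3 were higher and 9 lower in NTS kidney than in control kidney, 3 each way by at least 2-fold, with a median difference of -0.05. Cd68 differed by 2.23 and Cd14 by 2.15, and Ly86 by -1.35 and Lyz2 by -1.19. The log2 of their summed values was 11.83 in NTS/PGE2 kidney, 12.35 in NTS kidney and 12.19 in control kidney. Of 14 measured tubular injury markers, 10 were at least 2-fold higher in NTS kidney and 0 lower, with summed levels of 12.94, 15.44 and 13.52 in the same order of arrays. The part of either cell population in the values of Plat and Plaur was not tested. In whole kidney RNA, fewer cells of a type and less RNA per cell cannot be told apart.

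F3, which starts the clotting cascade and in kidney is known in podocytes and tubule cells, read 8.09 in NTS/PGE2 kidney, 8.82 in NTS kidney and 8.66 in control kidney. The array with PGE2 was the low one. NTS minus control was 0.16, within the yardstick of 0.22. NTS/PGE2 minus NTS was -0.73, a 1.66-fold lower value, and 811 genes (4.07%) were at least this much lower. NTS/PGE2 minus control was -0.57, or 1.49-fold lower, which 298 genes (1.49%) matched or passed. For NTS/PGE2 minus NTS the median difference was 0 over 12 podocyte genes, 1.41 over 14 proximal tubule genes and 1.63 over 13 distal tubule and collecting duct genes; for NTS/PGE2 minus control these medians were 0.01, 0.003 and 0.04. Their part in the F3 values was not tested.

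Tfpi, the inhibitor of the tissue factor step, read 7.68 in NTS/PGE2 kidney, 7.63 in NTS kidney and 8.18 in control kidney. Here the control array was the high one. NTS minus control was -0.55 (1.46-fold lower) and NTS/PGE2 minus control -0.50 (1.41-fold lower), while NTS/PGE2 minus NTS was 0.05. At least this much lower were 1642 genes (8.24%) for NTS minus control and 409 (2.05%) for NTS/PGE2 minus control. These comparisons with control share that array. The control array also carried high values of fat, urothelium and smooth muscle genes. Of 12 measured fat genes, 9 were at least 2-fold lower in NTS kidney and 8 in NTS/PGE2 kidney than in control kidney; of 11 urothelium genes these were 5 and 4, and of 12 mesangial and smooth muscle genes 3 and 2. The median difference of the fat genes was -2.94 for NTS minus control and -3.02 for NTS/PGE2 minus control. Their summed level, which is dominated in the treated kidneys by Pck1, a gene also of tubules at 13.45 on all 3 arrays, was 14.02 in NTS/PGE2 kidney, 13.80 in NTS kidney and 15.13 in control kidney. That of the urothelium genes was 12.18, 12.66 and 13.18, and that of the mesangial and smooth muscle genes 12.41, 12.24 and 12.95, in the same order. Their part in the Tfpi, F3 and Plau differences from control was not tested.

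**Figure D2:**
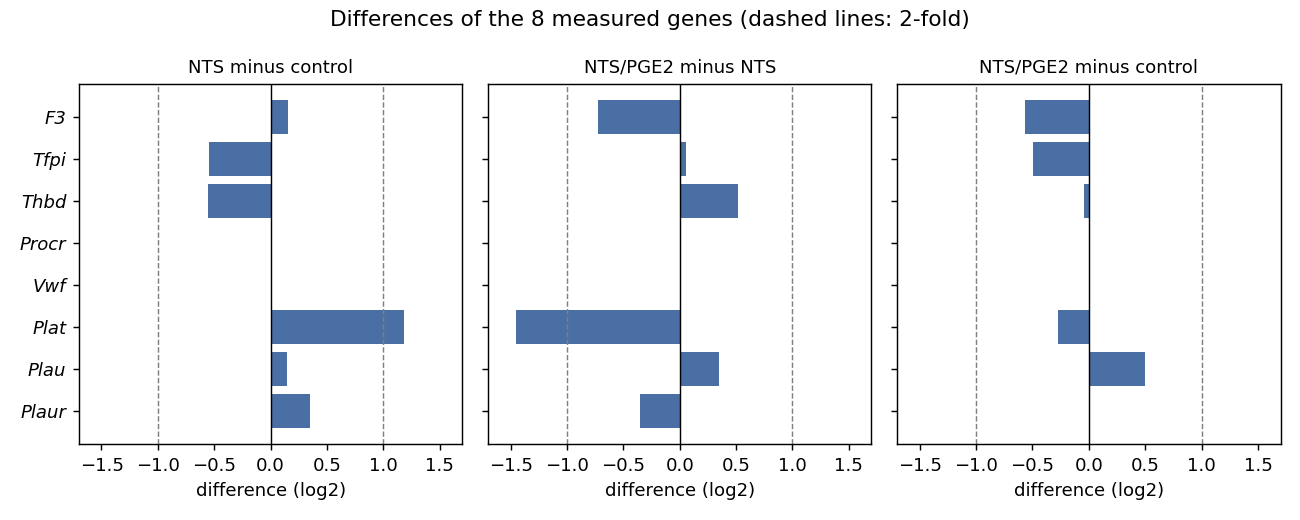
Differences in log2 value (horizontal axes) of the 8 measured genes for NTS minus control, NTS/PGE2 minus NTS and NTS/PGE2 minus control, with dashed lines at 2-fold. Plat passes the line at 1.18 and -1.46, and no bar passes it in the right panel, where F3 lies at -0.57 and Plau at 0.50.

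Of Thbd, Procr and Vwf, only Thbd had values that differed between arrays. Thbd, the thrombin-binding cofactor of the protein C pathway, read 8.77 in NTS/PGE2 kidney, 8.25 in NTS kidney and 8.81 in control kidney. The NTS array was the low one, by -0.56 (1.47-fold) against control, and the NTS/PGE2 array was above it by 0.51 (1.43-fold). Many genes differed by as much. For NTS minus control 1615 genes (8.1%) were at least this much lower. For NTS/PGE2 minus NTS 1517 (7.61%) were at least this much higher. NTS/PGE2 minus control was -0.04, within the yardstick of 0.13. Procr read 6.89 on all 3 arrays and Vwf 7.36 on all 3. Exactly equal values were common: 29.1% of genes had them on all 3 arrays. The median polish step of RMA can return equal values even where single probes differ between arrays. An equal value thus does not show that a gene was the same in the 3 kidneys. Procr lay under the array medians, where a difference can be hidden by background.

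The other endothelial markers give the setting for these values. Of 21 endothelium genes, none of them a member, 10 were at least 2-fold lower in NTS kidney than in control kidney and 0 higher, with a median difference of -0.97. For NTS/PGE2 minus NTS, 11 were at least 2-fold higher and 0 lower, with a median of 1.03. For NTS/PGE2 minus control, 0 differed by 2-fold and the median was -0.07. The summed endothelium level was 14.14 in NTS/PGE2 kidney, 12.99 in NTS kidney and 14.28 in control kidney. Tek, an angiopoietin receptor with the lowest NTS minus control difference of the list at -2.26, read 9.84 in NTS/PGE2 kidney, 7.74 in NTS kidney and 10.00 in control kidney. The cell junction gene Cdh5 read 9.85, 9.10 and 10.05 in that order. Thbd had the same order of arrays as these. For NTS minus control, 16 of the 21 endothelium genes were lower by more than Thbd and 5 by less or not at all. Tfpi had the same order of arrays and the same counts. For NTS/PGE2 minus NTS, 18 of the 21 had a higher difference than Tfpi and 3 a lower one. For Thbd these were 16 and 5. Most of the list did not share the equal values of Vwf. For NTS minus control, 19 of the 21 were lower and 2 equal. For NTS/PGE2 minus NTS, 19 were higher, 1 lower and 1 equal. The equal one was Nos3, the endothelial nitric oxide synthase gene, at 7.78 on all 3 arrays. The part of endothelial cell number in these values was not tested.

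Beyond the 9 genes, 5 lists of the same pathways held 55 genes, 46 of them measured: coagulation factors, anticoagulant proteins, plasmin system genes, thrombin receptors, and genes of platelets and of VWF handling. Of the 46, 5 were at least 2-fold higher and 2 at least 2-fold lower in NTS kidney than in control kidney. The shares over all genes were 1.78% and 3.37%. For NTS/PGE2 against NTS, 2 of the 46 were at least 2-fold higher and 5 at least 2-fold lower, against 2.56% and 2.1% of all genes. Between NTS/PGE2 and control 0 differed by 2-fold, against 0.456% of all genes. No test was run on these counts. The median was 0 in each comparison, as for all genes. Exactly equal values made up 17, 11 and 13 of the 46, in the same order of comparisons. The same 7 genes were called in both comparisons that use the NTS array.

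The plasmin system list had 9 measured genes, of which 1 was called. Anxa2, which with S100a10 binds plasminogen and tissue plasminogen activator at cell surfaces, read 9.47 in NTS/PGE2 kidney, 11.42 in NTS kidney and 9.90 in control kidney. NTS minus control was 1.53 and NTS/PGE2 minus NTS was -1.96, so its order of arrays was that of Plat. Plg, the gene of plasminogen itself, is mainly a liver gene and read 6.67, 6.40 and 6.40, under the median of each array.

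Of 16 measured coagulation factor genes, 3 were at least 2-fold higher and 2 at least 2-fold lower in NTS kidney than in control kidney. The higher ones were the fibrinogen chains. Fga read 7.54 in NTS/PGE2 kidney, 10.08 in NTS kidney and 7.14 in control kidney, Fgb 7.97, 12.66 and 8.23, and Fgg 8.76, 13.12 and 9.02. Fga was the mean of 2 probe sets, with NTS minus control at 3.26 in one and 2.63 in the other. The lower ones were F13b and F8. F13b, the carrier subunit of the fibrin-crosslinking factor XIII, read 9.91 in NTS/PGE2 kidney, 8.19 in NTS kidney and 10.13 in control kidney, a difference of -1.94 for NTS minus control. F8, the cofactor that Vwf carries in blood and that endothelial cells make, read 8.93, 7.53 and 8.92, a difference of -1.39. F8 was thus 2.62-fold lower in NTS kidney than in control kidney; the equal values of Vwf, for the reason given above, cannot be set against it.

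Among 9 anticoagulant genes, 1 was called. Serpina10, the protein Z-dependent inhibitor of factor Xa, read 7.31 in NTS/PGE2 kidney, 9.47 in NTS kidney and 6.71 in control kidney, so it was 6.79-fold higher in NTS kidney than in control kidney. Its control value lay below the median of that array. The gene of protein C (Proc), the substrate of the thrombin and thrombomodulin complex, read 9.87, 9.56 and 9.73. None of 3 measured thrombin receptor genes was called, and the receptor gene F2r read 10.34 on all 3 arrays, with a difference of -0.002 for NTS/PGE2 minus control. None of 9 measured platelet and VWF handling genes was called either; their median difference was 0.12 for NTS minus control and their summed level was 10.13 in NTS/PGE2 kidney, 10.29 in NTS kidney and 10.05 in control kidney.

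**Figure D3:**
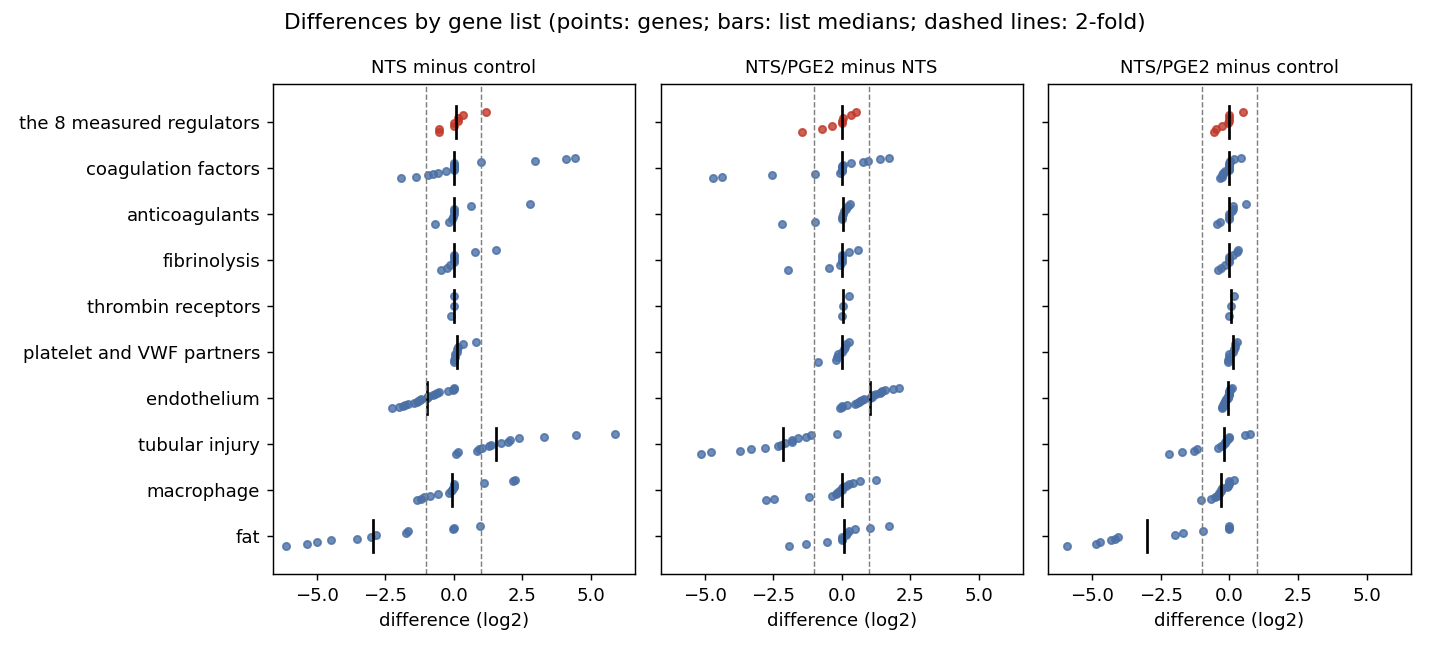
Differences in log2 value (horizontal axes) by gene list for the 3 comparisons; points are genes, black bars are list medians and dashed lines mark 2-fold. In the left panel the 8 regulators, in red, lie between -0.56 and 1.18, while the fibrinogen chains reach 4.43 and the endothelium list has its median at -0.97.

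The genes nearest to Plat in pattern were sought among 11363 genes whose highest value reached the median of its array. Predicted transcripts, olfactory and vomeronasal receptor genes and small RNA genes had been left out of these by name. Nearness was the smallest Euclidean distance over the 3 arrays after each gene was centred on its own mean. The 3 nearest genes were Tmem171, a membrane protein gene, at a distance of 0.01, and the tetraspanin gene Cd9 at 0.03. The last was Diaph3, a formin of the actin cytoskeleton, at 0.04. Diaph3 reached the median of an array only in NTS kidney and read 5.91 in NTS/PGE2 kidney, 7.32 in NTS kidney and 6.14 in control kidney, so 2 of its 3 values were dim. Cd9 read 9.62 in NTS/PGE2 kidney, 11.12 in NTS kidney and 9.93 in control kidney. Likeness here describes 3 arrays only. The other 7 measured genes had ranges under 1 log2 unit over the arrays and were not matched.

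**Figure D4:**
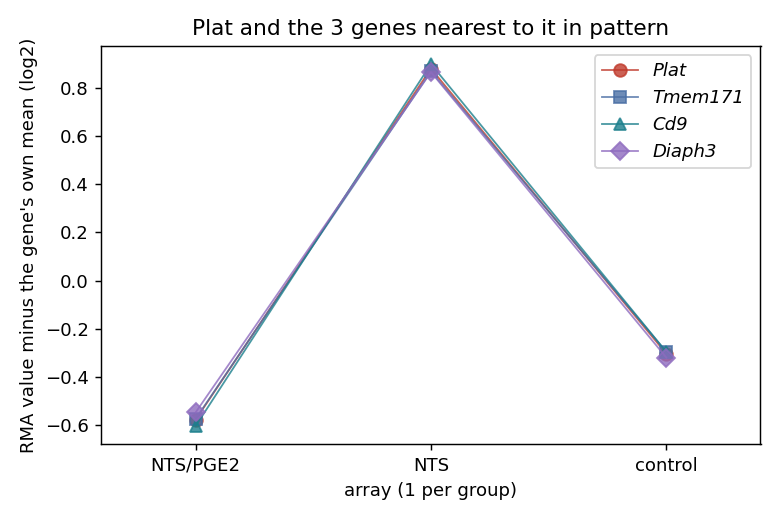
RMA value minus the gene's own mean (log2, vertical axis) on the NTS/PGE2, NTS and control arrays for Plat and the 3 genes nearest to it, Tmem171, Cd9 and Diaph3. Points are single arrays, and the 4 lines nearly coincide, with the peak in NTS kidney.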

How the data were processed

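Kidney total RNA was extracted with Trizol and 250 ng of it went into the biotin labelling for each of the 3 arrays, per the labels' protocols. The authors deposited log2 values computed by RMA in Affymetrix Expression Console, per the submitters' processing notes, with its version and the genome build not given in the sources used here. This method subtracts background, equalises the arrays' distributions and summarises each probe set by median polish. No scanner values were analysed here.

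There were 35556 probe sets: 21789 with 1 gene symbol, 1621 with several, and 12146 that stayed unnamed here. Symbols were checked by gene identifier against a GRCm38.p6 table, which matched 21698 and altered 0. A gene with several probe sets took their mean, which left 19938 genes. Groups came from the labels. A gene was called at a log2 difference of at least 1; no test was run. Counts of lists took all measured genes with no filter on dim ones. Pathway lists left out the 9 members. The members, the 16 lists and the rules were chosen with earlier results of these data known. Named genes were the members, list genes past 2-fold, a few fixed pathway genes and the 3 nearest patterns of members with a range of at least 1; Umod, Podxl, Tek, Cdh5, Nos3, Pck1 and Proc were added after their values were seen. The yardstick SD is that of the gap between a gene's 2 probe sets, divided by the square root of 2; both had to reach the higher of the array medians on at least 1 array of the comparison. Alternatives were a filter on dim genes, a 1.5-fold rule, median centring, the brightest probe set and probe sets of several symbols. Calculations used Python 3.11.15 with pandas 2.3.3 and numpy 2.4.6, and were tested on simulated data.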

Additional observations from a re-analysis of the deposited data

How the results depend on the processing

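With a rule of 1.5-fold in place of 2-fold, the members called for NTS/PGE2 against NTS numbered 2 (Plat and F3, both lower) in place of 1, and 12.1% of all genes were called. Under the same rule the pathway genes called numbered 14 of 46 between NTS and control in place of 7 (12.6% of all genes), 13 between NTS/PGE2 and NTS in place of 7, and 1 (Serpina10, higher) between NTS/PGE2 and control in place of 0 (1.81% of all genes). The other 26 of 30 alternative counts lay within 1.5 times the reported count. Among genes past the filter on dim genes, 8.12% were called at 2-fold between NTS and control, 7.44% between NTS/PGE2 and NTS and 0.72% between NTS/PGE2 and control. All 72 alternative differences of single members, under median centring, the brightest probe set and probe sets of several symbols, lay within the technical yardstick of the reported value. This outcome was largely fixed beforehand and is no support for the values. Each measured member had 1 probe set, so the brightest probe set could alter neither its value nor the counts of members. Probe sets of several symbols altered no member value. Centring shifts all genes alike within a comparison, here by at most 0.0289. No paired analysis was possible because each group had 1 array, and for the same reason no array could be left out.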

Other observations

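Genes named here were picked after their values were seen, since all but Pf4 lay between 1.5-fold and 2-fold from control in NTS kidney. None passed 2-fold in that comparison. The gene of the vitamin K-dependent carboxylase, Ggcx, read 9.31 in NTS/PGE2 kidney, 8.37 in NTS kidney and 9.14 in control kidney, and the vitamin K epoxide reductase gene Vkorc1 read 10.48, 9.70 and 10.63. Pros1, the gene of protein S, cofactor of activated protein C, read 8.15 in NTS/PGE2 kidney, 9.11 in NTS kidney and 8.48 in control kidney. Kininogen (Kng1), of the contact pathway, read 7.90 in NTS/PGE2 kidney, 8.87 in NTS kidney and 7.90 in control kidney, where NTS was 1.97-fold above control. S100a10, the partner of Anxa2, read 12.71, 13.17 and 12.40 in that order. The integrin gene Itgb3, found on platelets and other cells, read 7.12 in NTS/PGE2 kidney, 7.97 in NTS kidney and 7.18 in control kidney, while the platelet chemokine gene Pf4 read 6.75, 6.94 and 6.81, below the median of each array. Anxa5, a phospholipid-binding anticoagulant protein, read 11.50 in NTS/PGE2 kidney, 11.26 in NTS kidney and 11.96 in control kidney.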
